A study of Mus musculus with 2 samples.

Results

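The genes of polyamine metabolism were described in ALL211, a T-cell acute lymphoblastic leukemia that arose in a mouse. The 9 genes were chosen by symbol, through the Entrez identifiers of the count table: the synthesis enzymes Odc1, Amd1, Srm and Sms, the regulators Oaz1, Oaz2 and Azin1, and the catabolic enzymes Sat1 and Smox. All 9 were found among the 27179 genes of the table, and all 9 were among the 12125 genes that reached 1 CPM (counts scaled to a common library total) in at least 1 library. They were chosen with the difference between these libraries known, so their values are a description.

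The leukemia carries the transgenes Vav-tTA and TRE-GFP-shIkaros, in which a transactivator driven by the blood-cell promoter Vav turns on GFP together with a hairpin RNA against Ikaros, a lymphoid transcription factor. Doxycycline (Dox) turns the transactivator off, so that endogenous Ikaros can return. Cells sorted by flow cytometry from spleens of leukemic recipient mice gave 2 libraries: Dox for 3 days, sorted as GFPmid (n = 1), and untreated, sorted as GFPhigh (n = 1). Both libraries come from the same leukemia, carry both transgenes and bear the same batch date, and Dox in cells without the hairpin was not analysed here. The design text speaks of 2 mice for each condition, but each condition has 1 sample, and the sources used here do not say whether mice were pooled.

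Polyamines (putrescine, spermidine and spermine) are small positively charged molecules that bind RNA and support translation and cell growth. Ornithine decarboxylase makes putrescine from ornithine, and spermidine synthase and spermine synthase then add aminopropyl groups taken from decarboxylated S-adenosylmethionine. Antizymes hold ornithine decarboxylase levels down by sending the enzyme to the proteasome, and acetylation and oxidation turn the longer polyamines back. Growing lymphoid cells are known for high polyamine synthesis, and Odc1 is a textbook target of the transcription factor Myc.

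The Dox library held 16484613 counts and the untreated library 16960042. With 1 library per condition there is no replicate check and no p-value, and the intervals are exact 95% intervals of the ratio of counts, which cover counting error only. Treatment, sorting gate and mice cannot be told apart. Ikzf1, which encodes Ikaros, was at 1229 CPM in the Dox library and 120.5 CPM in the untreated library, the direction of the labels. All 10 T-cell markers were detected, at 225.5 CPM or more in the Dox library and 133.4 CPM or more in the untreated library. Markers of other cell types were higher in the Dox library as sums. There 12 macrophage genes summed to 159.4 CPM, against 11.5 CPM in the untreated library. The 7 dendritic cell genes summed to 47.6 and 1.11 CPM, and 7 measured erythroid genes to 60.3 and 10.02 CPM. Neutrophil genes summed to 9.83 and 4.74 CPM, B-cell genes to 3.91 and 1.05, and natural killer genes to 5.50 and 0.644. Single genes differed from this: erythroid Klf1 had 12 and 18 counts, and neutrophil S100a8 had 26 and 28. Within the macrophage sum, Mpeg1 alone was at 96.8 CPM in the Dox library and 1.64 CPM in the untreated library. Of the 12 macrophage genes, 11 reached 1 CPM in the Dox library and 4 in the untreated library, where 4 of the 7 dendritic cell genes were at 0. The part of these other cells in the values below was not tested.

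All 4 synthesis genes were lower in the Dox library and both catabolic genes were higher, while the 3 regulators went both ways, with Oaz2 higher, Azin1 lower and Oaz1 nearly level. Of the 9 genes, 3 were lower by 2-fold or more (Srm, Odc1 and Amd1), 1 was higher by 2-fold or more (Sat1) and 5 lay within 2-fold. Of all 12125 genes, 13.0% were lower by that much, 13.6% higher, together 26.6%, and 73.4% lay within 2-fold. The counting intervals of the same 3 genes and of Sat1 lay wholly beyond 2-fold, beside 8.38% of all genes on the lower side and 9.11% on the higher side. Past 4-fold, Srm and Odc1 were lower and 0 of the 9 genes were higher, beside 3.07% and 4.46% of all genes. Since the 9 genes were picked with this difference known, nothing is read from their share. Their median log2 fold of Dox over untreated was -0.42, beside -0.01 for all genes, and it hides the split by role, with medians of -1.67 for the 4 synthesis genes, -0.03 for the 3 regulators and 1.16 for the 2 catabolic genes.

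**Figure D1:**
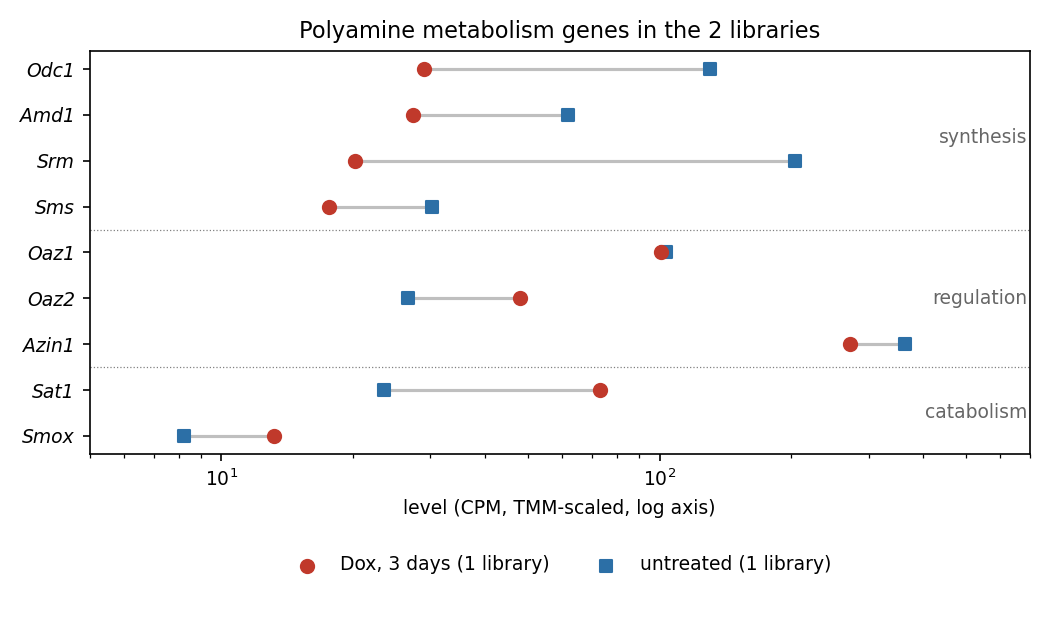
Scaled level of each gene in CPM on a log axis, with circles for the Dox library and squares for the untreated library, grouped by role. The 4 synthesis genes lie lower in the Dox library, Sat1, Smox and Oaz2 lie higher, and Oaz1 is at nearly the same level in both.

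Srm differed most. It encodes spermidine synthase, which makes spermidine from putrescine. Srm (Entrez 20810; GRCm38 chromosome 4, 148591513 to 148594619) had 330 counts in the Dox library and 3476 in the untreated library, or 20.1 and 203.6 CPM. The ratio was 10.1-fold lower with Dox (interval 9.02 to 11.3; log2 fold -3.33). Only 89 of the 12125 genes had a lower log2 fold. Among 1159 genes whose untreated level lay within 1.5 times that of Srm, 3 had a lower one. Genes without a symbol or with a predicted, clone or pseudogene name were left out of these 1159. No other annotated transcript matched Srm at 95% identity or more over at least 100 bases, so copies of that kind share none of its reads.

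Odc1 encodes ornithine decarboxylase, the enzyme of the committed step to putrescine. Odc1 (Entrez 18263; chromosome 12, 17544808 to 17551502) had 476 counts in the Dox library and 2231 in the untreated library, or 29.1 and 130.7 CPM. It was 4.50-fold lower with Dox (interval 4.07 to 4.97; log2 fold -2.16), and 300 genes had a lower log2 fold. The GENCODE annotation of the same build holds 6 processed pseudogenes at least 95% identical to Odc1 over at least 100 bases, 0 of which have a row in the count table. The sources used here do not say how reads that match several places were counted.

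Amd1 encodes S-adenosylmethionine decarboxylase, which supplies the aminopropyl donor. Amd1 (Entrez 11702; chromosome 10, 40287458 to 40302188) had 448 counts in the Dox library and 1056 in the untreated library, or 27.4 and 61.9 CPM. It was 2.26-fold lower with Dox (interval 2.02 to 2.53; log2 fold -1.17). Its level is uncertain, because the gene Amd2 is 99.6% identical to it over 3202 aligned bases. Amd1 has 5 near-identical copies in all, and only Amd2 has a row in the count table. Amd2 had 172 counts in the Dox library and 278 in the untreated library, and both genes summed gave a ratio 2.06-fold lower with an interval of 1.88 to 2.27, which no longer lies wholly beyond 2-fold.

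Sms encodes spermine synthase, which makes spermine from spermidine. Sms (Entrez 20603; chromosome X, 157443851 to 157492287) had 288 counts in the Dox library and 517 in the untreated library, or 17.6 and 30.3 CPM. It was 1.72-fold lower with Dox (interval 1.49 to 1.996), and the upper bound ends near the 2-fold line. A processed copy elsewhere on the same chromosome, Sms-ps, is 100% identical to Sms over 1101 bases and took more counts than the gene itself, 860 in the Dox library and 1381 in the untreated library. With Sms-ps and the minor copy Gm8234 added, the ratio was 1.59-fold lower (interval 1.48 to 1.72). Both aminopropyl transferase genes were thus lower, by unlike amounts. Per gene length, the level of Srm over that of Sms was 2.91 in the Dox library and 17.1 in the untreated library, or 0.727 and 4.61 with the Sms copies added.

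**Figure D2:**
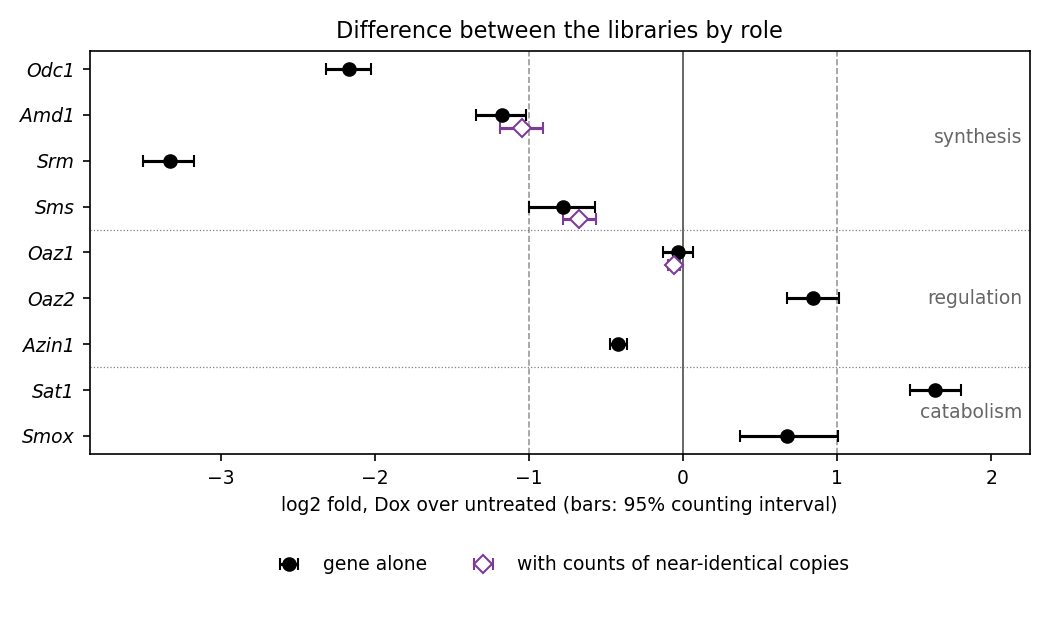
Log2 fold of Dox over untreated for each gene with its 95% counting interval, in filled circles, and with counts of near-identical copies added, in open diamonds. Dashed lines mark 2-fold. Srm stands farthest to the left at -3.33 and Sat1 farthest to the right at 1.63, and adding copies moved Amd1, Sms and Oaz1 little.

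Sat1 encodes spermidine/spermine acetyltransferase, which acetylates the longer polyamines for export or oxidation. Sat1 (Entrez 20229; chromosome X, 155213126 to 155216449) had 1198 counts in the Dox library and 401 in the untreated library, or 73.1 and 23.5 CPM. It was 3.11-fold higher with Dox (interval 2.78 to 3.50; log2 fold 1.63), and 771 genes had a higher log2 fold. The summed macrophage, dendritic cell and erythroid markers given above were higher in the same library, and the part of such cells in this value was not tested. In such bulk libraries a different share of cells of a type and a different amount of RNA per cell cannot be told apart. Per gene length, Sat1 was at 5.74 times the level of Odc1 in the Dox library and at 0.410 times in the untreated library, so their order was reversed.

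Smox encodes spermine oxidase, which turns spermine back to spermidine and releases hydrogen peroxide. Smox (Entrez 228608; chromosome 2, 131491858 to 131525183) had 216 counts in the Dox library and 140 in the untreated library, or 13.2 and 8.20 CPM. With so few counts the ratio of 1.61-fold higher had a wide interval, 1.29 to 2.004. Of 6 further enzyme and regulator genes of the pathway, Paox and Amd2 passed the filter, and neither differed by 2-fold. Paox, the peroxisomal oxidase of acetylated polyamines, went the other way at 65 counts in the Dox library and 127 in the untreated library. Its transcript overlaps that of Echs1 on the opposite strand (1283 and 2107 counts) over 143 bases. Without a stated strand setting, reads there cannot be told apart. The processed copy Gm19680, 99.9% identical to Paox over 1358 bases, has no row in the count table.

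Of the 2 antizyme genes, Oaz1 was nearly level and Oaz2 was higher in the Dox library. Antizyme 1 is made by a ribosomal frameshift that polyamines promote, so its protein is set after transcription. Oaz1 (Entrez 18245; chromosome 10, 80826656 to 80829290) had 1654 counts in the Dox library and 1765 in the untreated library, or 101.0 and 103.4 CPM. The Oaz1 ratio of 0.977 had an interval from 0.913 to 1.05, which spans 1. More reads were counted at a copy of Oaz1 than at the gene itself. The processed copy Oaz1-ps on chromosome 17 is 99.7% identical over 685 bases and had 8007 counts in the Dox library and 8715 in the untreated library, 4.84 and 4.94 times those of Oaz1. Both rows summed gave a ratio of 0.961 (interval 0.935 to 0.988). The 30 bases around the shift site, from the GENCODE transcripts of the build, are given below. The last sense codon and the stop codon of the first frame are in capitals. The windows differ at 0 positions, but both were located by the same run of bases across the site. Identity in that run was thus fixed in advance.
Oaz1: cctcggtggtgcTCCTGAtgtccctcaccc
Oaz1-ps: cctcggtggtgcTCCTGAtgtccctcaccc

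Oaz2 encodes antizyme 2, a further inhibitor of ornithine decarboxylase. Oaz2 (Entrez 18247; chromosome 9, 65676548 to 65690300) had 786 counts in the Dox library and 456 in the untreated library, or 48.0 and 26.7 CPM. It was 1.797-fold higher with Dox (interval 1.60 to 2.02). Azin1 encodes the antizyme inhibitor, a relative of ornithine decarboxylase without its activity that binds antizymes and so spares the enzyme. Azin1 (Entrez 54375; chromosome 15, 38487430 to 38519294) had the most counts of the 9 genes, 4460 in the Dox library and 6215 in the untreated library, or 272.3 and 364.1 CPM. The Azin1 ratio of 0.748 had a narrow interval, 0.720 to 0.777. The testis antizyme gene Oaz3 and the second inhibitor gene Azin2 had at most 4 counts in either library.

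**Figure D3:**
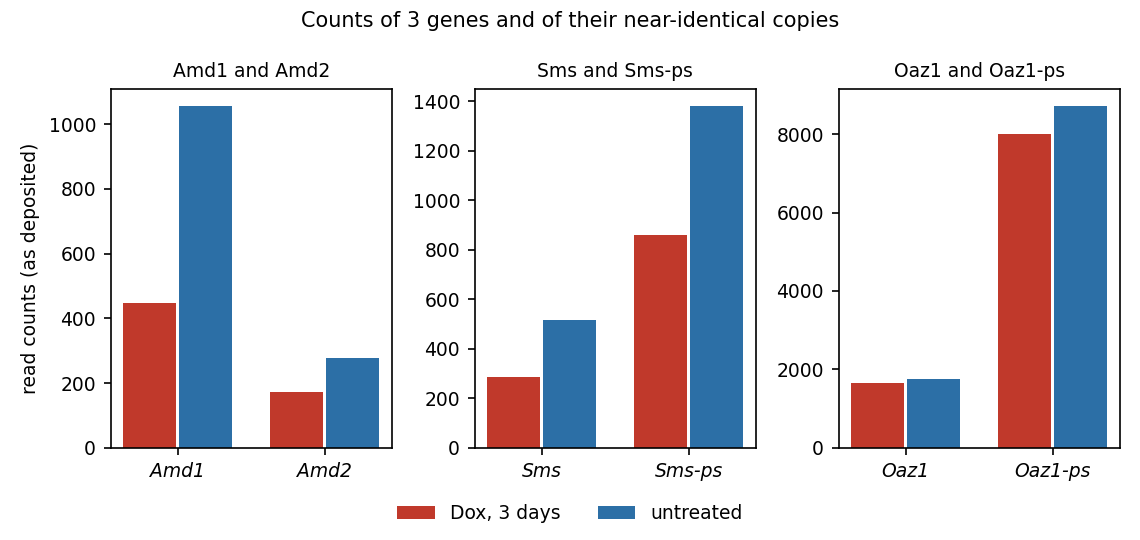
Deposited read counts of Amd1, Sms and Oaz1 beside those of Amd2, Sms-ps and Oaz1-ps, Dox bars left of untreated bars, each panel with its own axis from 0. Sms-ps and Oaz1-ps hold more counts than the gene they copy in both libraries, while Amd2 holds fewer than Amd1.

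Levels of different genes were compared per gene length. In the Dox library the order was Oaz1 (94.0 CPM per kb), Sat1 (65.5), Azin1 (54.2), Oaz2 (26.04), Srm (15.2), Odc1 (11.4), Amd1 (8.53), Smox (5.83) and Sms (5.21). In the untreated library Srm stood at the top (153.3 CPM per kb), before Oaz1 (96.3), Azin1 (72.4), Odc1 (51.3), Sat1 (21.0), Amd1 (19.3), Oaz2 (14.5), Sms (8.97) and Smox (3.63). With copies added the order turned: Oaz1 was then first in both libraries, at 549.2 CPM per kb in the Dox library and 571.6 in the untreated library, and Sms, at 20.9 and 33.3, stood above Srm in the Dox library. Whether neighbours in either order differ beyond the spread between mice cannot be said from 1 library each. The summed level of the 4 synthesis genes was 40.3 CPM per kb in the Dox library and 232.9 in the untreated library, that of the 2 catabolic genes 71.4 and 24.7, and that of the 3 regulators 174.2 and 183.2. The 4 synthesis genes made up 14.1% of the summed level of the 9 genes in the Dox library and 52.8% in the untreated library, the 2 catabolic genes 24.96% and 5.60%, and the 3 regulators 60.9% and 41.6%, a larger share in the Dox library at a slightly lower sum. With copies added, mostly Oaz1-ps, the synthesis share was 7.80% in the Dox library and 27.7% in the untreated library and the catabolic share 9.39% and 2.61%. Odc1 relative to its inhibitor gene Oaz2 was at 0.438 in the Dox library and 3.54 in the untreated library. Relative to Oaz1 it was below 1 in both, at 0.121 in the Dox library and 0.533 in the untreated library, or 0.0208 and 0.0898 with Oaz1-ps added.

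**Figure D4:**
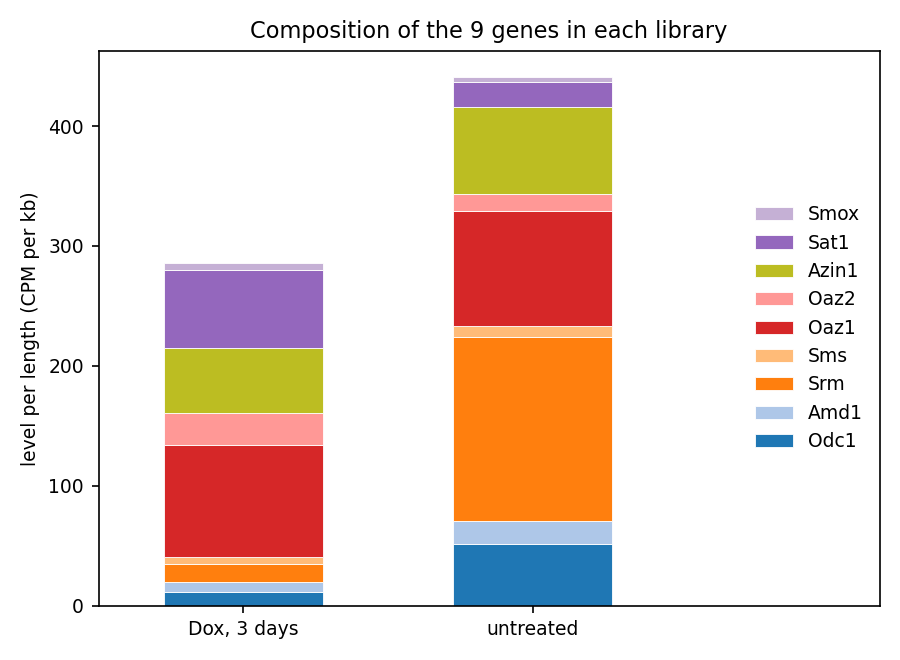
Stacked level per gene length (CPM per kb) of the 9 genes, the Dox library left of the untreated library. Srm forms the tallest segment of the untreated bar at 153.3 CPM per kb and a thin one of the Dox bar at 15.2, while the Sat1 segment is 65.5 in the Dox bar and 21.0 in the untreated bar.

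The RefSeq promoter table of GRCm38.p6, with windows of 250 bases before to 50 after a start, matched 7 of the 9 genes in 8 windows. Srm and Azin1 had no entry. The windows of Odc1, Amd1 and Sms are shown as those of genes lower in the Dox library, and that of Sat1 as the gene higher by over 2-fold. Capitals mark the E-box CACGTG, which Myc with Max and other factors can bind, and the GC box GGGCGG read on either strand, and matches may overlap. They lie at chr12:17544623-17544922 on the plus strand (Odc1), and on the minus strand at chr10:40302139-40302438 (Amd1), chrX:157492238-157492537 (Sms, the upstream of its 2 windows) and chrX:155216400-155216699 (Sat1).
Odc1: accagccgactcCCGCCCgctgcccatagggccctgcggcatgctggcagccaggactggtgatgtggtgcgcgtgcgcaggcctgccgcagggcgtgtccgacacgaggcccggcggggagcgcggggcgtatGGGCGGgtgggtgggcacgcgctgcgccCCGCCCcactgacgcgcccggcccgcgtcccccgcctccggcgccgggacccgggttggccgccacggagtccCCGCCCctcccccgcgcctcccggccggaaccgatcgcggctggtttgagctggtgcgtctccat
Amd1: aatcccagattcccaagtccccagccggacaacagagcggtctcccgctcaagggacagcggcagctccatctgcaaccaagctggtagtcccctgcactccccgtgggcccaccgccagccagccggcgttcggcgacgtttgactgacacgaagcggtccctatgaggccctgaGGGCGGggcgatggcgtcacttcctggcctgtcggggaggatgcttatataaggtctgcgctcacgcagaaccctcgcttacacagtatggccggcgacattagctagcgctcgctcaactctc
Sms: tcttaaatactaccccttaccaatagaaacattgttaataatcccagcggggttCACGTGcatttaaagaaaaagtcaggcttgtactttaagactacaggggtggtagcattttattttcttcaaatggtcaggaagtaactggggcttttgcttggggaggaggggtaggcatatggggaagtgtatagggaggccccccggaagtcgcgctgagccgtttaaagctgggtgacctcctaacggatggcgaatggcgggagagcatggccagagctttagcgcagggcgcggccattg
Sat1: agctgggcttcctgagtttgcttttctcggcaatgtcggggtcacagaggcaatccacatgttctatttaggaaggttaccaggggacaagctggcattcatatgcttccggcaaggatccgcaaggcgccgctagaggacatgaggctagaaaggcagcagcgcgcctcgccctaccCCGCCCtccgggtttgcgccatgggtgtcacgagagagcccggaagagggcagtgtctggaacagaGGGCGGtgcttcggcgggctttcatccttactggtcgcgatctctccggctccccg

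The E-box occurred in 1 of the 8 windows, the upstream one of Sms, and in 7.15% of all 32851 windows. Counted by gene, it occurred in 1 of the 7 genes, beside 11.8% of the 9305 kept genes that have a window. The GC box occurred in windows of 6 of the 7 genes, all but Oaz1, and in those of 68.5% of the 9305 kept genes that have a window. The GC boxes of Sms lie in its window not shown, which held 4 of them, 0 E-boxes and a GC content of 74.3%. The Odc1 window held 4 GC boxes and had a GC content of 78.0%, against a median of 52.7% over all windows. A match is a run of letters, and these windows leave out introns and distant sequence.

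Across 5 lists of genes that feed, use or move polyamines or their precursors, 23 of 33 listed genes passed the 1 CPM filter. Of these, 8 were lower by 2-fold or more, 0 were higher by 2-fold or more and 15 lay in between, with a median log2 fold of -0.89, beside 13.0% and 13.6% of all genes and a median of -0.01. The log2 fold was negative in 20 of the 23 and positive in 3, beside 6142 negative and 5983 positive among all 12125 genes. Among the 8 lower genes, the counting intervals of Ahcy and Enoph1 did not lie wholly beyond 2-fold. The lists were drawn up with earlier results of these libraries known.

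Ornithine and its precursors come from arginine, glutamate and proline metabolism. Of the 5 kept genes of this list, 2 were at least 2-fold lower and the median log2 fold was -0.83. Slc7a1, the main carrier of arginine and ornithine into the cell, was at 44.8 CPM in the Dox library and 152.2 CPM in the untreated library, 3.40-fold lower. Ass1, argininosuccinate synthase, had 135 and 357 counts, but the processed copy Gm5424, 99.5% identical over 1240 bases, had 2019 counts in the Dox library and 5040 in the untreated library. Aldh18a1, which starts proline and ornithine synthesis from glutamate, had a log2 fold of -0.83, Oat, ornithine aminotransferase, -0.71 and Asl, argininosuccinate lyase, 0.68. The arginase gene Arg1 had 0 counts in both libraries and Arg2 had 6 and 2, so a direct arginase route was not detectable at this depth beyond those counts.

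The methionine cycle supplies S-adenosylmethionine, and the salvage branch recycles methylthioadenosine, the by-product of both aminopropyl transferases. Of 8 kept genes, 4 were at least 2-fold lower and the median log2 fold was -0.96. Mtap, the phosphorylase that starts the salvage branch, was at 48.4 CPM in the Dox library and 212.1 CPM in the untreated library, 4.39-fold lower (log2 fold -2.13). Mat2a, the catalytic methionine adenosyltransferase, was at 115.9 and 356.6 CPM, 3.08-fold lower, while its regulatory partner Mat2b was at 176.2 and 122.6 CPM, 1.44-fold higher. Ahcy, the hydrolase of S-adenosylhomocysteine, had a log2 fold of -1.09 and Enoph1, a later salvage enzyme, -1.01. Against these stood 0.20 for Adi1, which also acts in the salvage branch. The fold-lower intervals of Ahcy (1.83 to 2.51) and Enoph1 (1.78 to 2.30) crossed 2-fold. The level of Ahcy is uncertain, because Gm4737, 99.7% identical over 2086 bases, has no row in the count table. Mat2a also has such a copy, Gm9523, 95.4% identical over 1164 bases.

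Hypusine is a modified lysine built from spermidine on a single kind of protein, eIF5A, a translation factor. All 4 genes of this list were lower in the Dox library (median log2 fold -0.96), 1 of them at least 2-fold. Eif5a was at 756.0 CPM in the Dox library and 2098 CPM in the untreated library, 2.77-fold lower. Its enzymes Dhps, deoxyhypusine synthase, and Dohh, deoxyhypusine hydroxylase, had log2 folds of -0.70 and -0.96, and the second factor gene Eif5a2 had -0.96. Dhps overlaps Wdr83 (431 and 532 counts) on the opposite strand. Eif5a and Dohh match near-identical transcripts of other genes that have no row in the count table.

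Of the 4 kept transport genes, 1 was lower by 2-fold or more and the median log2 fold was -0.57. Slc3a2, the heavy chain of amino acid carriers that has also been linked to polyamine export, was at 70.8 CPM in the Dox library and 165.6 CPM in the untreated library, 2.34-fold lower. The polyamine transporting ATPase genes Atp13a3 and Atp13a2 had log2 folds of -0.52 and -0.28, and Slc12a8 had 16 and 27 counts, with a log2 interval of -1.69 to 0.25 that spans 0. Among the linked genes, 6 of the 20 kept ones with a promoter window held the E-box in it (Aldh18a1, Ass1, Dohh, Eif5a, Eif5a2 and Enoph1), beside 1102 of 9305 kept genes (11.8%). The GC box was also more frequent in them, in windows of 17 of these 20 genes (85.0%), beside 68.5% of the kept genes. Genes differ in how many windows they have, and no test was made.

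**Figure D5:**
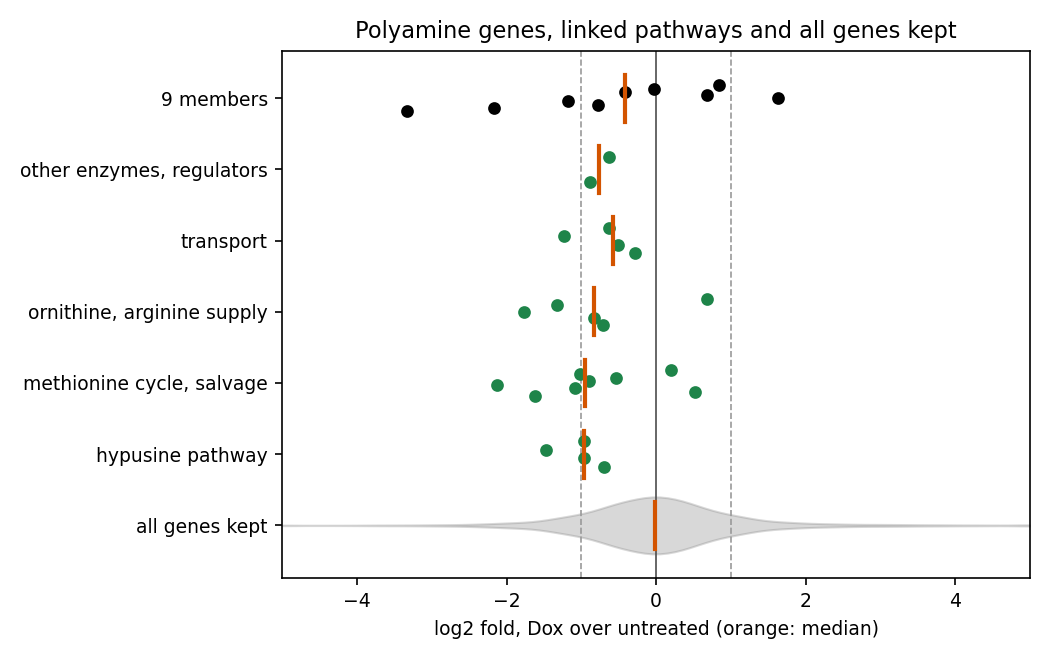
Log2 fold of Dox over untreated for the kept genes of each list, one point per gene with orange bars for medians, above the distribution over all 12125 kept genes, whose values beyond 5 either way are drawn at the edge. The 5 linked lists have medians between -0.96 and -0.57, and the 9 polyamine genes spread from -3.33 to 1.63.

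The search for genes of like difference passed over genes without a symbol or with a predicted, clone or pseudogene name. Genes whose difference was most like that of Srm, among those with an untreated level within 1.5 times its own, were Ybx3 (log2 fold -3.44), H2-T3 (-3.04), a member of the large MHC class I family whose reads may be split between relatives, and Shmt1 (-2.98). For Odc1, among 1834 such genes, they were Nop2 (-2.15), Hirip3 (-2.15) and Ctps (-2.20). The likeness rests on 1 difference between 2 libraries. Myc itself was at 18.9 CPM in the Dox library and 265.7 CPM in the untreated library (log2 fold -3.80).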

How the data were processed

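RNA sequencing counts of 2 libraries were used. The files deposited by the authors hold whole-number counts of reads for each gene, not normalized, and a gene length column. CASAVA 1.8.2 and featureCounts with the mm10 build were used, per the submitters' processing notes. The aligner, strand setting, annotation and counting of multiply mapped reads were not given in the sources used here. A further deposited column, gene length, served for levels per length and for the length trend. The joint table and the table of each sample held equal values (0 of 27179 genes differed), and symbols came from RefSeq (25275 genes) and GENCODE (18).

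Counts were scaled with TMM in edgeR 4.0.16 (R 4.3.3; factors 0.994 for Dox and 1.01 for untreated). Each log2 fold is log2 CPM of Dox minus that of untreated, a prior count of 2 being added, while ratios, CPM and intervals (Clopper-Pearson, conditional binomial, 95%) carry none. A count of 3, the limit that a count of 0 allows, corresponds to 0.183 CPM in the Dox library and 0.176 CPM in the untreated library. Intervals treat reads as independent, which PCR copies are not. No test between conditions was made. Near-identical transcripts of the polyamine and linked genes were found with BLAST 2.17.0+ among GENCODE M21 transcripts (at least 95% identity over at least 100 bases). Genes that matched over 20 others, Slc3a2 here, were left out as sharing a repeat. Of the polyamine genes, Odc1, Amd1, Sms, Sat1 and Oaz2 have same-strand copies without a row in the count table, which could not be added. Such copies also exist for the kept linked genes Ahcy, Mat2a, Eif5a, Dohh, Paox, Amd2 and Slc12a8.

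The members, lists and rules were chosen with earlier results of these data known. Named genes are the 9 members, Ikzf1, Myc and the 3 most like Srm and Odc1. Further ones are up to 4 kept genes per list, those of largest absolute log2 fold, and 9 further pathway genes fixed by name. Oaz3, Azin2, Arg1, Arg2, Adi1, Asl, Mat2b, the copies, Echs1, Wdr83, Mpeg1, Klf1 and S100a8 were added after their values were seen. Alternatives were other scalings (total count, DESeq2 1.42.0, upper quartile), prior counts of 0.5 and 5, filters of 1 count and 5 CPM, totals without markers of other cells, removal of a gene length trend, a threshold of 4-fold, calls by the counting interval and, added after the data were seen, counts of copies. The calculation was tested on simulated data.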

Additional observations from a re-analysis of the deposited data

How the results depend on the processing

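All results rest on 1 library per condition, so no library could be left out. No paired analysis was possible because each condition has 1 library and no test was made. Under other scalings, prior counts and low-count filters, with totals without markers of other cells, with the gene length trend removed and with the copies added, 3 genes were lower and 1 higher by 2-fold or more each time, and the median log2 fold of the 9 genes ran from -0.53 to -0.40. With the counting interval wholly beyond 2-fold the counts were also 3 and 1. At 4-fold, 2 genes were lower and 0 higher, since Sat1 was 3.11-fold higher. The filters of 1 count and 5 CPM were applied without recomputing the scaling, so no gene value could move under them. Adding copies could change only Amd1, Sms and Oaz1. Part of the recomputed values thus could not move. Of 90 recomputed gene values, these included, 86 lay within the counting interval of the value reported. The other 4 did not, all after removal of the gene length trend: Srm (-3.15), Sat1 (1.83), Azin1 (-0.53) and Oaz1 (0.16). Oaz1, near 0 throughout, changed sign there, so no direction is given for it. Low counts left wide intervals for genes such as Smox and Paox, and the interval of Slc12a8 spans no difference.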
